A study of Mus musculus with 8 samples.

Results

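The genes described here are 77 mouse genes of the zinc finger, Krüppel-like, homeobox, forkhead, nuclear receptor, NFI, Tcf, E2f, Atf, Gata and Stat families, measured in cultured cortical astrocytes with and without connexin43. They were chosen by gene symbol, with earlier results of these data known. Names begin with Zfp, Zbtb, Klf, Sox, Fox, Hox, Gata, Nr, Nfi, Tcf, E2f, Atf, Ceb or Stat in the form of a family member. Only array features that carry a single symbol were used, and Sox9 and Foxm1 were left out. Of 176 such symbols on the array, 77 had a ratio on at least 3 Cx43 KO and 3 WT arrays, out of 3505 genes and unnamed features tested in all (2900 named genes). The tested members were 44 Zfp, 7 Zbtb, 5 Klf, 2 Fox, 3 Hox, 1 Gata, 3 Nr, 3 Nfi, 4 Tcf, 2 E2f, 1 Atf and 2 Stat genes, while 0 of 3 Sox and 0 of 2 Ceb symbols could be tested. The other 99 symbols had too few ratios, and 56 of them had no ratio on any array. On either side of this minimum, 22 members had exactly 3 ratios in a genotype, with mean levels between -1.79 and 2.48. Just outside it, 29 symbols had exactly 2 ratios in the genotype with fewer, with mean levels between -3.55 (Gata4) and 2.77 (Foxd1) on the log2 scale explained next. The remaining 14 symbols with any ratio had fewer than 2 in a genotype.

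The Cx43 KO group was 4 samples of cultured cortical astrocytes from newborn Cx43 null mice, and the WT group 4 such samples from wild-type mice. Connexin43 forms most of the gap junctions between astrocytes. The 8 arrays each compared astrocytes with a shared pool of adult C57BL/6j tissues of both sexes, among them brain, heart, liver, kidney, lung and spleen, and each value is the log ratio of astrocytes over pool, read here as log2, so that 1.00 is 2-fold above the pool. Numbers 1 to 4 are lot batches, each with 1 array of either genotype. The strain of the astrocytes, C57BL/6j, stands in full on the label of WT 1 only, the title of Cx43 KO 3 lacks the word KO, and how the null allele was made is not given in the sources used here. Whether the samples were separate cultures or mice is not stated, so the p-values cover just their spread, which may be technical.

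Between 3506 and 5514 of 9568 features carried a ratio on an array, and the median ratio of each array was set to 0. The connexin43 transcript (Gja1) was not analysed here, as 0 features carry its name, and so it does not check the genotype labels. Of the astrocyte markers, Fabp7 lay 3.06 to 4.61 above the pool on all arrays. Aldoc lay on both sides of the pool, between -1.07 and 0.88. Id4 (-0.52) and Ttyh1 (-0.59) were below it on Cx43 KO 4 and above it on the other arrays with a ratio. Slc1a2 was listed at 0 on all arrays. The myelin gene Mbp lay between -5.88 and -4.53 where it had a ratio. Fabp7 differed by -0.72 in Cx43 KO minus WT (limma adjusted p = 0.655). Array Cx43 KO 4 stands apart from the other arrays. There, 3 astrocyte markers averaged 0.46, against 1.75 to 2.02 in the other Cx43 KO samples and 1.86 to 2.20 in WT. On Cx43 KO 4, 5 microglia markers averaged 2.20, against 0.29 to 1.15 in the other Cx43 KO samples and 0.67 to 1.27 in WT. There, 4 fibroblast and mural markers averaged 2.89, against -0.71 to 1.10 in the other Cx43 KO samples and 0.79 to 1.86 in WT. These were Col1a1, Col3a1, Fn1 and Igf2, while Pdgfra (0.24), Lum (-0.25) and Dpp4 (-2.18) lay within the range of their other arrays. The last 3 lacked a ratio on some arrays and are not in the mean. Of the neuronal markers, Map2 stood at -2.54 on Cx43 KO 4, against 0.08 to 1.22 on the other arrays. Nefm (-2.01) lay within the range of the other arrays and Rbfox3 (-1.13) above it. Values without Cx43 KO 4 are given beside differences of members that it moves by over 1.5 times or turns. In these bulk samples, fewer cells of a type and less RNA per cell cannot be told apart.

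Most Zfp genes encode proteins that bind DNA through strings of zinc fingers, and many of them carry a KRAB domain that recruits the corepressor Trim28 and silences retroelements and nearby genes. Zbtb proteins join zinc fingers to a BTB domain, and Klf proteins bind GC-rich promoter elements. NFI factors act with Sox9 to turn on astrocyte genes. E2f factors time the cell cycle, Stat factors carry cytokine signals to the nucleus, nuclear receptors answer to steroids, sterols and other ligands, and Hox genes pattern the hindbrain, spinal cord and body axis.

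Promoter sequences from RefSeq (assembly GRCm38.p6), 250 bases before to 50 bases after the transcript start, were found for 61 of the 77 members, 81 promoters in all. The motifs below were searched on both strands. The GC box GGGCGG, to which Klf and Sp factors bind, was present in 58.0% of the member promoters, against 35.7% of all 32851 mouse promoters of this length. A CCAAT box (CCAAT) was present in 42.0%, against 37.4%, an E-box CACGTG in 11.1%, against 7.15%, and a TATA box TATAAA in 2.47%, against 13.6%. The nuclear receptor motif AGGTCA was in 16.0%, against 16.3%, and the Stat site TTCNNNGAA in 11.1%, against 8.30%. The median GC content was 62.7% in member promoters and 52.7% in all promoters, so the member promoters were richer in G and C, the letters of the GC box. These shares are descriptions of the sequences and were not tested. The 4 promoters printed here belong to members that were far from their other values on Cx43 KO 4, and were picked after these values were seen: Klf6 and Stat6 were highest there, and Nr2f1 and Klf15 lowest. Capitals mark GC boxes, CCAAT boxes and E-boxes on either strand, and no 2 of them overlap. They lie at chr13:5861239-5861538 on the plus strand (Klf6), chr10:127642736-127643035 on the plus strand (Stat6), chr13:78198824-78199123 on the minus strand (Nr2f1, 1 of its 2 promoters in the table) and chr6:90462326-90462625 on the plus strand (Klf15).
Klf6: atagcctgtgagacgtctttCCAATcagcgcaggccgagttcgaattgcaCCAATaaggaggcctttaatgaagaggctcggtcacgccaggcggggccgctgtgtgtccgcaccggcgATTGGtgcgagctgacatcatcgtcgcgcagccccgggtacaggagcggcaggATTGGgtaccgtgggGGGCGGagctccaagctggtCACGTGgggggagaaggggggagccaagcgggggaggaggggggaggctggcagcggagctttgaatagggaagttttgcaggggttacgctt
Stat6: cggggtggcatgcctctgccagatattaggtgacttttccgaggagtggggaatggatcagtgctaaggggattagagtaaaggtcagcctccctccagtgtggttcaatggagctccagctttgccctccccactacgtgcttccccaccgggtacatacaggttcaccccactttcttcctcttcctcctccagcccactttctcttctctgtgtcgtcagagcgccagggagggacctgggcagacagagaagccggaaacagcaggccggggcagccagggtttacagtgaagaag
Nr2f1: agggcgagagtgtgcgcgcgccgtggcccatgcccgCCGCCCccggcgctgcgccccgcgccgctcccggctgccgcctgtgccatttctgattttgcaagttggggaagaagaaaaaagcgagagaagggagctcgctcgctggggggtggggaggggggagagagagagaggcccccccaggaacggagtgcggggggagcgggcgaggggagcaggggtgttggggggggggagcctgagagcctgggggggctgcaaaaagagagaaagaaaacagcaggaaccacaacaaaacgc
Klf15: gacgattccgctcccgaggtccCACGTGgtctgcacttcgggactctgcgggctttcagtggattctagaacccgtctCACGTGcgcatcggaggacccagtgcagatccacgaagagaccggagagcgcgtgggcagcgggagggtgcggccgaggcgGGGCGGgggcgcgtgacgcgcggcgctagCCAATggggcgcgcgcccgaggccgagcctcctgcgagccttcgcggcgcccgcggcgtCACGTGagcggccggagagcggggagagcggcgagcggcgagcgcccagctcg
The Klf15 promoter held 3 E-boxes, 1 GC box and 1 CCAAT box, and the Klf6 promoter 4 CCAAT boxes, 1 GC box and 1 E-box. The Nr2f1 promoter held 1 GC box and 0 of the other capitalised motifs, and the Stat6 promoter 0 of them, with 1 nuclear receptor motif in lower case.

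Against the adult tissue pool, the transcription factor genes lay closer to 0 than the array's genes as a whole. The middle of their distribution ran from -0.21 to 0.50 (quartiles of the mean log2 ratio), against -0.49 to 0.52 over all genes tested, and 49 of 77 stayed within 2-fold of the pool on every array with a value (63.6%, against 48.2% of all genes tested). At least 2-fold above the pool on every array lay 1 member, Zfp516 (2.91% of all genes tested did), and at least 2-fold below it 2 members, Gata6 and Zfp956 (4.79% of all genes tested did). Without Cx43 KO 4 or without WT 1 the number above was 3, and without WT 2 it was 2. These levels were not tested against 0, since a dye effect cannot be told apart from them.

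**Figure D1:**
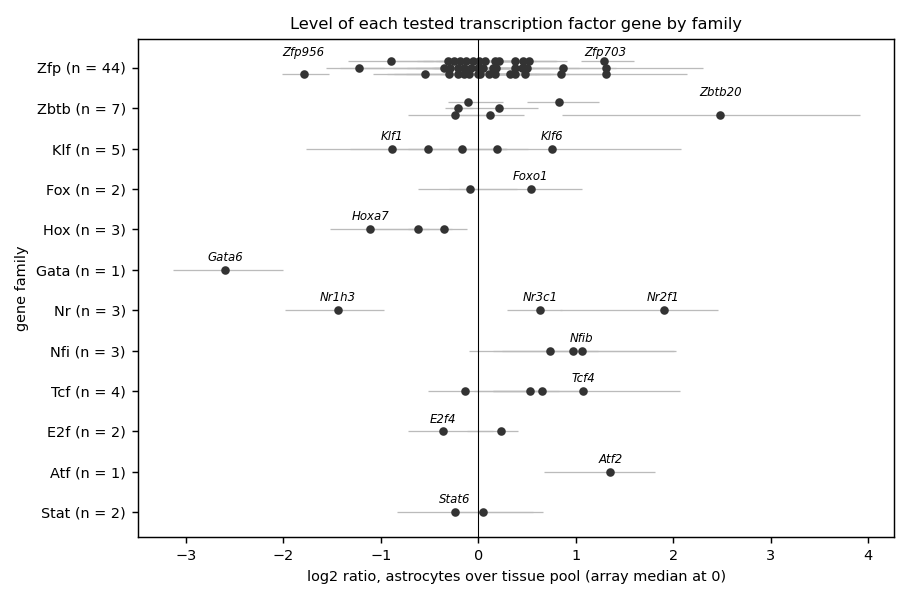
Mean log2 ratio of astrocytes over tissue pool for each of the 77 tested genes (points), by gene family (rows), with grey lines from the lowest to the highest array. Zbtb20 and Nr2f1 lie furthest above the pool, Gata6 lies furthest below it at -2.60, the 3 Hox genes lie below it and the 3 Nfi genes above it.

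The 6 highest mean levels belonged to Zbtb20, Nr2f1, Atf2, Zfp362, Zfp703 and Zfp516. Zbtb20, a repressor needed to form the hippocampus, had log2 ratios of 3.21, 3.92, 2.82 and 1.17 on Cx43 KO 1 to 4, and 0.86, 2.73 and 2.68 on WT 1, 3 and 4. Its level differed by more than 3-fold between arrays of either genotype, and WT 1 and Cx43 KO 4 were the low arrays. Nr2f1, the orphan receptor COUP-TFI that patterns cortical areas, stood at 2.39, 1.85, 2.46 and 0.84 in Cx43 KO, against 1.74, 2.00, 1.89 and 2.05 in WT. Its WT arrays were close together, and Cx43 KO 4 lay below all other arrays. Zfp516, known in mouse fat for inducing Ucp1, varied less, at 1.53, 1.07, 1.26 and 1.5 in Cx43 KO and 1.05, 1.12, 1.60 and 1.21 in WT. Averaged over its 2 features, each of its arrays lay at least 2-fold above the pool. The feature measured on all arrays did so too, while the other was below 2-fold on WT 1 (0.80) and WT 4 (0.97). Zfp703, a corepressor-binding factor, stood at 2.15, 1.29, 1.29 and 0.41 in Cx43 KO and 1.06, 1.53, 1.39 and 1.32 in WT, with Cx43 KO 1 the highest and Cx43 KO 4 the lowest array. Zfp362 averaged 1.31, but its value on WT 2 (-1.42) came from a feature that had no ratio on the other arrays, whose values from another feature ran from 1.57 to 2.31.

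All 3 tested NFI genes lay above the pool in their means. Nfib, required for gliogenesis in the cortex, stood at 2.02, 1.58, 0.86 and 0.16 in Cx43 KO and 1.06, 0.69, 0.73 and 1.41 in WT. Nfix, a relative with a part in neural stem cell differentiation, stood at 2.01, -0.09, 1.24 and 0.42 in Cx43 KO, and at 0.51, 1.12, 1.09 and 1.45 in WT. Nfic, best known from tooth root formation, stood at 0.70, 0.86, 0.71 and 1.23 in Cx43 KO and 0.24, 0.51, 0.80 and 0.85 in WT. The spread of Nfib and Nfix over the Cx43 KO arrays was over 2 times that over the WT arrays (SD 0.82 and 0.92, against 0.34 and 0.39, n = 4 each), whereas Nfic varied alike in both (SD 0.25, against 0.28). Tcf4, the bHLH E protein mutated in human Pitt-Hopkins syndrome, averaged 1.08 over all arrays.

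The 6 lowest mean levels belonged to Gata6, Zfp956, Nr1h3, Zfp790, Hoxa7 and Zfp207. Gata6, a factor of endoderm, heart and lung, was at -2.60, -2.66, -2.43 and -3.13 in Cx43 KO and -2.01, -2.78, -2.46 and -2.72 in WT, the lowest of all members. Zfp956 was at -1.68, -1.77, -1.78 and -2.01 in Cx43 KO, and at -1.78, -1.53 and -1.98 on WT 1, 2 and 4. Both were far below the pool on every array, with genotypes that overlapped. Zfp790 averaged -1.22 and Klf1, the erythroid Krüppel-like factor, -0.89. Zfp207, a spindle assembly protein, averaged -0.90, but 2 of its features disagreed, one lying between -2.81 and -1.65 and another between -0.09 and 0.79, so that its level is uncertain.

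The 3 tested Hox genes all had means below the pool: Hoxa7 at -1.11, Hoxb1, a hindbrain gene, at -0.62 and Hoxc5 at -0.35. Quantile normalization, scale normalization and leaving out the centring kept all 3 Hox means below 0 and all 3 NFI means above it. Of the 44 Zfp genes 24 had means above the pool and 20 below, a split that moved to 35 and 9 without centring, so their balance around 0 depends on the centring.

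Setting Cx43 KO against WT astrocytes asks which transcripts differ when connexin43 is missing. No transcription factor gene passed the test. With limma, adjusted p was below 0.05 for 0 of 3505 genes and features tested (0%) and so for 0 of the 77 members. At an unadjusted p below 0.05 there were 263 genes (7.5%) and 5 members (6.49%), a share near that of all genes. In the higher direction these were 3 members (3.85% of all genes tested) and in the lower direction 2 members (3.65% of all genes tested). The difference was above 0 in 38 of 77 members (52.6% of all genes tested) and its median was -0.00016, against 0.017 over all genes. At least 1.5-fold apart were 3 members, Zfp362, Zbtb20 and Zfp12 (7.08% of all genes tested). For Zfp362 the difference of 1.20 rests on its WT 2 value, from a feature without a ratio on the other arrays. On the feature that gave its other values, the difference of the means was 0.13. The 95% interval of the difference stayed within 2-fold in either direction for 69 of 77 members, with a median reach of 0.48 to each side.

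These counts shifted with single arrays. Without Cx43 KO 4, 4 genes passed at an adjusted p below 0.05 and without WT 2, 1 gene did, with 0 members among them. The members at an unadjusted p below 0.05 numbered 8 without Cx43 KO 4, 11.3% of those tested, against 12.2% of all genes. They numbered 3 each without Cx43 KO 3 (4.23%, against 5.57% of all genes), WT 2 (4.35%, against 5.75%) or WT 3 (4.55%, against 4.49%), and 1 each without WT 1 (1.72%, against 6.1%) or WT 4 (1.72%, against 9.79%). With the lot batch as a block they numbered 2, Zfp12 and Nr1h3 (5.59% of all genes tested), and with array weights 8 (14.6% of all genes tested, with 2 genes past the adjusted threshold).

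**Figure D2:**
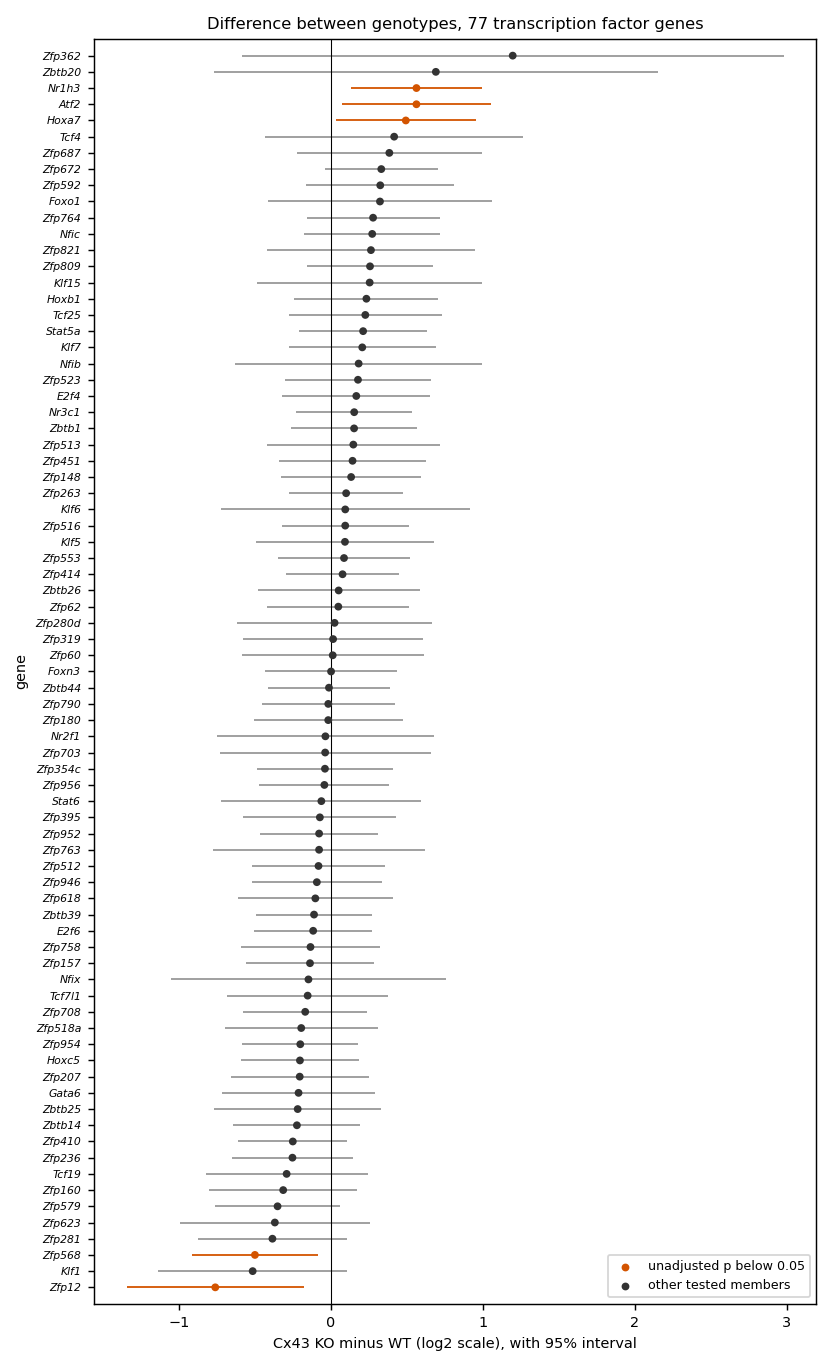
Difference of the mean log2 ratio, Cx43 KO minus WT (horizontal axis), for the 77 tested genes in order of size, with 95% intervals from limma. The 5 genes in orange have an unadjusted p below 0.05, and 0 of the 77 have an adjusted p below 0.05.

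The smallest p among the members belonged to Zfp12, a KRAB zinc finger gene. Its log2 ratios were -0.55, -0.87, -0.27 and -0.42 in Cx43 KO, against 0.73, 0.12, 0.53 and -0.45 in WT. All Cx43 KO arrays and WT 4 lay below the pool, and WT 4 overlapped with the Cx43 KO arrays. The means were -0.53 ± 0.26 in Cx43 KO and 0.23 ± 0.52 in WT (SD, n = 4 each), a difference of -0.76 (SE 0.26) or 1.70-fold, with limma's adjusted p of 0.655. Within lot batches the difference was -1.28, -0.99 and -0.80 in the first to the third and 0.03 in the fourth, and unadjusted p stayed below 0.05 with the lot batch as a block.

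Nr1h3 encodes the liver X receptor alpha, a sterol sensor that turns on cholesterol export genes. Its log2 ratios were -1.22, -1.21, -1.42 and -0.97 in Cx43 KO, against -1.65, -1.98 and -1.67 on WT 1, 2 and 4. Both genotypes lay below the pool, and every Cx43 KO array lay above every WT array. The means were -1.20 ± 0.19 (SD, n = 4) in Cx43 KO and -1.76 ± 0.19 (SD, n = 3) in WT, a difference of 0.56 (SE 0.19, limma adjusted p = 0.655), higher in 3 of 3 lot batches, with unadjusted p below 0.05 with and without the block. It was 0.48 without Cx43 KO 4, the highest array.

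Atf2, a leucine zipper factor that stress kinases activate, was the other member with higher values on every Cx43 KO array than on any WT array. It stood at 1.49, 1.81, 1.68 and 1.41 in Cx43 KO, against 0.67, 1.38 and 1.06 on WT 1, 2 and 4. The lowest Cx43 KO array exceeded the highest WT array by a narrow margin, which rests on averaging in a second feature with ratios on Cx43 KO 4 and WT 1 only. On the feature measured on all 7 arrays, Cx43 KO 4 (1.36) lay below WT 2 (1.38). The difference was 0.56 (SE 0.22, limma adjusted p = 0.655), higher in 3 of 3 lot batches. Unadjusted p was above 0.05 with the lot batch as a block and without centring. It was also above 0.05 with quantile normalization (difference 0.40) and scale normalization (difference 0.36).

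Zfp568, a KRAB zinc finger gene whose mouse protein represses a placental transcript of Igf2, was the member with non-overlapping genotypes in the other direction. It stood at -0.07, -0.13, 0.15 and -0.21 in Cx43 KO, against 0.54, 0.23 and 0.54 on WT 1, 3 and 4. All WT values lay above the pool. The positive value of Cx43 KO 3 averages -0.48 on the feature measured on all 7 arrays with 0.78 on a feature that had ratios on Cx43 KO 3, WT 1 and WT 4 only, and the genotypes did not overlap on the first of these either. The difference was -0.50 (SE 0.19, limma adjusted p = 0.655), lower in 3 of 3 lot batches, and unadjusted p was above 0.05 with the block. Genotypes thus did not overlap in 3 of 77 members (5.22% of all genes tested), 2 with Cx43 KO higher (2.43% of all genes tested) and 1 with Cx43 KO lower (2.8% of all genes tested), each measured on 7 arrays. With fewer arrays the share changed over all genes as well. It was 6 members without Cx43 KO 1 (8.11%, against 7.49% of all genes), 9 without Cx43 KO 2 (12.2%, against 8.42%), 7 without Cx43 KO 4 (9.86%, against 12.1%) and 1 without WT 1 (1.72%, against 7.91%).

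Hoxa7 stood at -0.65, -1.36, -0.94 and -0.51 in Cx43 KO, against -1.38, -1.22, -1.52 and -1.30 in WT, a difference of 0.49 (SE 0.21, limma adjusted p = 0.655). Cx43 KO 2 lay within the WT range and the other 3 Cx43 KO arrays above it. The value rests on 2 features that disagree: the feature measured on all arrays gave a difference of 0.08, far from the threshold, and the other was measured on Cx43 KO 3, Cx43 KO 4 and WT 4 only. Of the other Hox genes, Hoxb1 differed by 0.23 and Hoxc5 by -0.20 (-0.12 without Cx43 KO 4). Beyond the threshold, Zfp672 (0.33, limma adjusted p = 0.696) and Zfp579 (-0.35, adjusted p = 0.696) came next among the members.

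**Figure D3:**
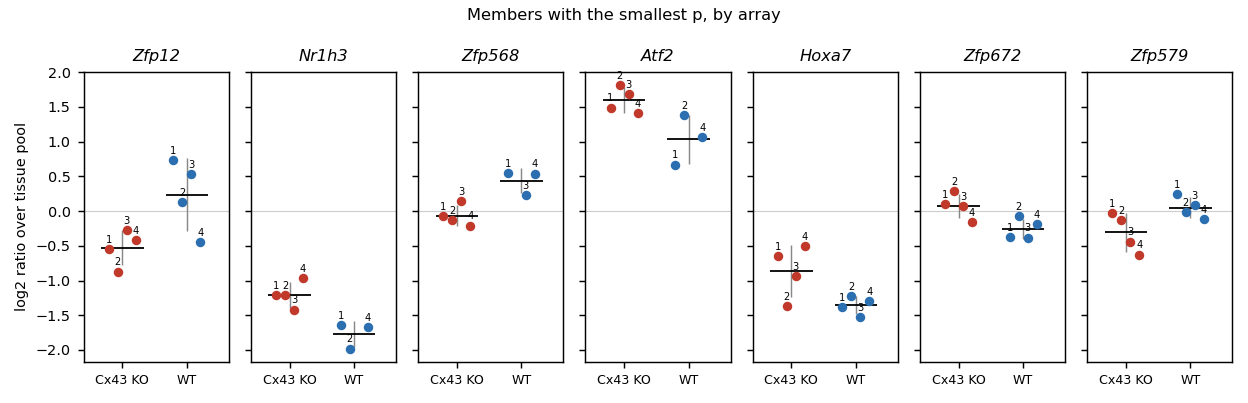
Log2 ratio over the tissue pool on each array (points, numbered by replicate) for the 7 members with the smallest p, Cx43 KO left and WT right in each panel, with the mean (bar) and SD (grey line). Averaged over features, genotypes do not overlap for Nr1h3, Zfp568 and Atf2, while WT 4 of Zfp12 and Cx43 KO 2 of Hoxa7 lie among the values of the other genotype.

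Of the other nuclear receptors, the glucocorticoid receptor gene Nr3c1 stood at 0.86, 0.84, 0.47 and 0.70 in Cx43 KO, against 0.71, 0.60, 0.30 and 0.64 in WT. The values overlapped, and the difference was 0.15 with a 95% interval from -0.23 to 0.53 (limma). Nr2f1 differed by -0.04, with an interval from -0.75 to 0.68, which spans more than 1.5-fold in either direction, and by 0.31 without Cx43 KO 4.

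The Krüppel-like genes divided 4 with differences above 0 and 1 below, with 0 at an unadjusted p below 0.05. Klf6, a factor induced by injury in several tissues, stood at 0.59, 0.40, 0.14 and 2.08 in Cx43 KO, against 0.88, 0.72, 0.82 and 0.42 in WT. Cx43 KO 4 was more than 2-fold above every other array, and Cx43 KO 1 to 3 all lay below WT 1 to 3. The means were 0.80 ± 0.87 in Cx43 KO and 0.71 ± 0.20 in WT (SD, n = 4 each), a difference of 0.09 (SE 0.37, limma adjusted p = 0.976) that turned to -0.33 (SE 0.19, adjusted p = 0.519) without Cx43 KO 4. Klf15, a metabolic factor that glucocorticoids induce, stood at 0.29, 0.24, -0.74 and -1.32 in Cx43 KO, against -0.68, -0.53, -0.56 and -0.79 in WT. The Cx43 KO arrays spread on both sides of the narrow WT range. Klf1 stood at -1.77, -1.24 and -0.54 on Cx43 KO 2 to 4, against -0.66, -0.49, -0.76 and -0.76 in WT, a difference of -0.52 (limma adjusted p = 0.714). Klf7, which promotes axon growth, differed by 0.21, and Klf5, a factor of epithelia and smooth muscle, by 0.09.

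Of the Stat and E2f genes, 0 had an unadjusted p below 0.05. Stat6, which carries interleukin-4 signals, stood at -0.59, -0.84, -0.33 and 0.66 in Cx43 KO, against -0.10, -0.16, -0.09 and -0.49 in WT. Cx43 KO 4 was the highest array of all, while Cx43 KO 1 and 2 were the lowest. The difference was -0.06, and -0.38 without Cx43 KO 4. Stat5a, which carries prolactin and growth hormone signals, stood at 0.20, -0.24, 0.11 and 0.56 in Cx43 KO, against values between -0.12 and -0.02 in WT, a difference of 0.21 (SE 0.19, limma adjusted p = 0.824) that was 0.077 without Cx43 KO 4. E2f4, a repressive E2f of resting cells, differed by 0.17 (95% interval -0.32 to 0.65) and E2f6, a repressor that acts with Polycomb proteins, by -0.12 (-0.50 to 0.27). Without Cx43 KO 4 these were 0.021 and -0.023. On its 3 features taken singly, which had ratios on different arrays, E2f4 differed by 0.10, 0.074 and 0.079.

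The forkhead genes Foxo1 and Foxn3 gave no difference past the test. Foxo1, which insulin signalling keeps out of the nucleus, stood at 1.06, 0.55, 0.48 and 0.70 in Cx43 KO, against 1.02, -0.62, 0.22 and 0.88 in WT. WT 2 was the low array, and without it the difference of 0.32 was -0.0083. Foxn3 had equal means of -0.09 in both genotypes, and differed by -0.16 without Cx43 KO 4. Of the Tcf genes, the growth-regulated gene Tcf19 differed by -0.29 (limma adjusted p = 0.804), Tcf25 by 0.23 and Tcf7l1, a repressor of Wnt target genes, by -0.15 (0.016 without Cx43 KO 4).

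The zinc finger genes made up most of the members. Of the 44 Zfp genes, 19 had differences above 0 and 25 below, with a median of -0.04, and of the 7 Zbtb genes 3 lay above and 4 below, with a median of -0.01. Among them, Zfp12 and Zfp568 had an unadjusted p below 0.05. Zbtb14, a BTB zinc finger repressor, stood at 0.10, 0.06, -0.18 and 0.14 in Cx43 KO, against 0.19, 0.47 and 0.10 on WT 1, 3 and 4, a difference of -0.22. Its genotypes overlapped, with WT 3 the high array. Zfp687 stood at 0.86, 0.53, 1.03 and 0.36 in Cx43 KO, against -0.48, 0.62, 0.45 and 0.66 in WT, and the low value of WT 1 set it apart from the rest. Zfp623 stood at -0.57, 0.80, 0.45 and 0.41 in Cx43 KO, against 0.81, 0.50, 0.92 and 0.35 in WT, with Cx43 KO 1 as the low array. Its 2 features disagreed, at -0.27 and 1.86 on Cx43 KO 2. Zfp821 stood at 0.53, -0.51, -0.79 and -0.88 in Cx43 KO, against -1.08, -0.30, -0.59 and -0.74 in WT, with Cx43 KO 1 as the high array, and its difference of 0.26 was 0.42 without Cx43 KO 4. In each of these 3 genes a value of 1 array lay well outside the other 7. Zfp809, which silences retroviral DNA in mouse embryonic stem cells, differed by 0.26 (95% interval -0.16 to 0.67), and Zfp281, a regulator of pluripotency genes, by -0.39 (-0.88 to 0.10). Zfp592 stood at 0.74, -0.27, 0.17 and -0.02 in Cx43 KO, against -0.19, -0.01, -0.26 and -0.22 in WT, but the value of Cx43 KO 1 includes a feature measured on that array alone (1.82). The feature measured on all arrays stood at -0.35 there, the lowest value, and its difference was 0.05. Zfp410, in mouse a regulator of the chromatin gene Chd4, stood at -0.17, -0.14, -0.30 and -0.21 in Cx43 KO, against 0.24, 0.13, 0.02 and -0.20 in WT. All of its Cx43 KO values lay below the array median set to 0, and WT 4 lay among them. The medians before centring were 0.27 and 0.28 on Cx43 KO 1 and 2, so the side of the pool depends on the centring.

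Array Cx43 KO 4 held more of the members' lowest values than any other array, but not more of their highest. Of the 55 members with a ratio on all 8 arrays, 17 had their lowest value there (30.9%, against 22.8% of 2596 genes) and 7 their highest (12.7%, against 20.2% of the same genes). On the other arrays 3 to 9 members had their lowest value and 3 to 10 their highest. The counts on Cx43 KO 4 were 16 to 21 lowest and 6 to 7 highest under the other scalings. The SD was larger in Cx43 KO than in WT for 34 of the 55 members (61.8%, against 58% of all genes with 8 values).

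**Figure D4:**
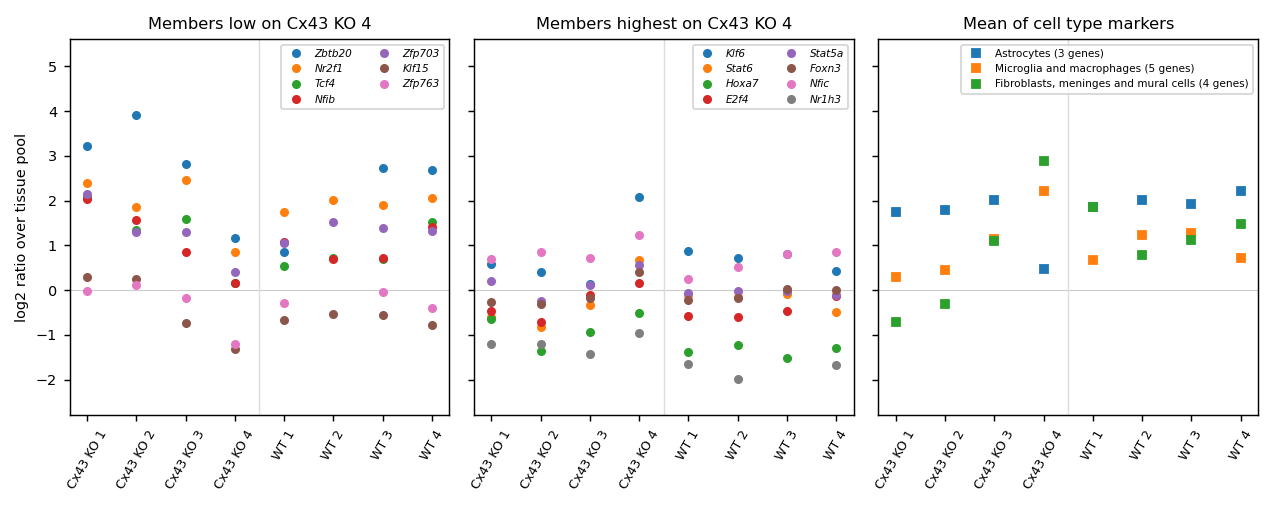
Log2 ratio over the tissue pool on each array for members that were low on Cx43 KO 4 (left), members that were highest there (middle), and the mean of 3 marker lists (right). On Cx43 KO 4 the astrocyte marker mean (0.46) is the lowest of all arrays and the microglia (2.20) and fibroblast (2.89) means are the highest.

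More than 2-fold below the mean of the other arrays on Cx43 KO 4 were 6 members (7.79%, against 4.71% of 3481 genes with a value there): Zbtb20, Nr2f1, Zfp763, Tcf4, Nfib and Zfp703. Tcf4 stood at 2.07, 1.34, 1.58 and 0.15 in Cx43 KO, against 0.54, 0.73, 0.69 and 1.53 in WT. Without Cx43 KO 4 its Cx43 KO arrays lay above all WT arrays but WT 4. Zfp763 stood at -1.20 on Cx43 KO 4, against -0.40 to 0.12 on the other arrays. More than 2-fold above the mean of the others were 3 members (3.9%, against 5.31% of the same genes): Klf6 by 1.52, Zfp362 by 1.19, with the feature problem named above, and Stat6 by 1.04. Also highest there were Hoxa7, E2f4, Stat5a, Foxn3, Nfic, Nr1h3 and Zfp553, by 0.33 to 0.69. For Hoxa7 this rests on the feature with ratios on 3 arrays (0.55), and on its other feature Cx43 KO 4 was the lowest array (-1.56). On 1 of the 3 features of E2f4, WT 4 (0.34) and Cx43 KO 3 (0.18) lay above Cx43 KO 4 (0.13). The NFI genes did not move one way. Nfib was lowest on Cx43 KO 4, Nfix lay within the range of the other arrays and Nfic was highest there. Of the Klf genes, Klf6 was highest there and Klf15 lowest, while both tested Stat genes were highest there. Zbtb20 was low on Cx43 KO 4 but lower still on WT 1. The part of the array's cell types in these values was not tested. The microglia genes Ctss, Fcer1g and Ptprc were listed at 0 on all arrays, while Cd68 (3.78), Itgam (2.46) and Rac2 (3.04) were highest on Cx43 KO 4 and Tyrobp and Lgmn were not.

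Without Cx43 KO 4, 71 of the 77 members could still be tested, and 8 of them, as above, had an unadjusted p below 0.05, out of 3143 genes tested. These were Tcf4, Zbtb20, Klf15, Nr1h3, Atf2 and Zfp672, with differences above 0, and Zfp12 and Zfp568, with differences below 0. Tcf4 then differed by 0.79 (SE 0.27, limma adjusted p = 0.309), Zbtb20 by 1.23 (SE 0.48, adjusted p = 0.346) and Klf15 by 0.57 (SE 0.25, adjusted p = 0.395). With all arrays these differences were 0.42, 0.69 and 0.25. Markers of other cell types also differed without Cx43 KO 4, though none passed the adjusted test. Of the fibroblast and mural markers, Col3a1 differed by -3.07, Igf2 by -0.91, Fn1 by -0.90 and Col1a1 by -0.24. Of the microglia markers, Cd68 differed by -1.11, Tyrobp by -0.94, Itgam by -0.67, Lgmn by 0.63 and Rac2 by 0.36. The part of cell types in the differences of the members was not tested. The share among the members stayed near that of all genes, and 0 members passed at an adjusted p below 0.05.

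Transcription factors outside the symbol rule were looked at in 4 lists, and partner genes in 4 more. Of 6 tested Ets, Irf, Nfkb and other Stat genes, 4 had differences above 0 (52.6% of all genes tested did). At an unadjusted p below 0.05 were 2, both higher (3.85% of all genes tested), while 0 passed the adjusted test. The non-canonical NF-kB subunit gene Nfkb2 stood at 0.49, 0.74, 1.48 and 2.15 in Cx43 KO, against 0.10, 0.43, 0.53 and 0.38 in WT (difference 0.86, SE 0.33, limma adjusted p = 0.655). Irf9, a factor of interferon signalling, stood at 0.56, 0.97, 0.90 and 1.43 in Cx43 KO, against 0.34, 0.65, 0.41 and 0.53 in WT (difference 0.49, SE 0.20, limma adjusted p = 0.655). Both were highest on Cx43 KO 4, and in both 1 Cx43 KO array overlapped with the WT arrays. Without Cx43 KO 4, Nfkb2 differed by 0.55 (SE 0.24, limma adjusted p = 0.394) and Irf9 by 0.33. Ets1, a factor of lymphoid and endothelial cells, differed by -0.56 and passed neither threshold, though it lay close to the unadjusted one. Without Cx43 KO 4 it differed by -0.76 (SE 0.22, limma adjusted p = 0.244).

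In the other lists the leading genes did not pass the adjusted test either. Over all genes tested, 52.6% of differences lay above 0. Of 6 bHLH and AP-1 type genes, 2 lay above 0 and 4 below, with the clock-linked repressor Bhlhe40 at 0.60. The Myc antagonists Mxi1 and Mxd4 were both at -0.23 (Mxi1 at -0.13 without Cx43 KO 4). Of 4 nuclear receptors with older names 3 lay above 0, with the retinoid receptor Rxra at 0.54 (0.30 without Cx43 KO 4). The oestrogen receptor Esr1 was at 0.36 and Rora at 0.19 (0.32 without Cx43 KO 4). Of 4 homeobox genes outside the Hox clusters 1 lay above 0, Prrx1 at 0.37 (0.19 without Cx43 KO 4). The cortical patterning gene Emx2 was at -0.27 and Pbx3 at -0.05 (0.026 and -0.10 without Cx43 KO 4). Among partner genes, the E2f partner Rb1 differed by 0.20. The nuclear receptor cofactors Ncoa1 and Med1 differed by 0.04 and 0.02 (0.30 and -0.082 without Cx43 KO 4). Among Jak-Stat genes, Socs5 differed by -0.29 (-0.19 without Cx43 KO 4), Pias4 by -0.55 and Socs2 by -0.47. The 1 E2f partner, 2 nuclear receptor cofactors and 6 Jak-Stat genes tested had 0 genes at an unadjusted p below 0.05 (7.5% of all genes tested). Of 6 corepressor genes 1 passed it, in the lower direction (3.65% of all genes tested). This was the histone deacetylase gene Hdac2, at -0.08, 0.07, -0.46 and -0.03 in Cx43 KO, against 0.65, 0.22, 0.13 and 0.51 in WT. All Cx43 KO values of Hdac2 lay below all WT values, as in 2.8% of all genes tested. Its difference was -0.50 (SE 0.19, limma adjusted p = 0.655). Cbx5, a heterochromatin protein, differed by -0.38 and Ctbp1 by 0.30 (-0.20 and 0.10 without Cx43 KO 4).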

How the data were processed

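Expression was measured on 8 two-colour arrays, 4 Cx43 KO and 4 WT. The deposited values are signed log ratios, read here as log2. Direction (channel 2, astrocytes, over channel 1, tissue pool) follows the labels. With this direction Fabp7 was high and Mbp low, while Aldoc lay on both sides of the pool. How the authors corrected, normalized and dye-labelled the arrays, and the base of the log, were not given in the sources used here. Genotype was taken from the titles. Exact 0, which filled 42.4% to 63.4% of features, was read as no ratio. Array medians before centring lay between 0.09 and 0.32, and each array was centred on its median. Features with a single symbol (7307, 5822 symbols) were averaged per gene; 26 members had more than 1 feature. The arrays give no counts, and their number limits the precision. Genes with at least 3 values per genotype were fitted with limma 3.58.1 in R 4.3.3 (lmFit, eBayes, two-sided, no block), adjusted by Benjamini-Hochberg over all 3505 genes and features; the scripts were tested on simulated data. Numbers pair the arrays by the lot batch in the labels. Deviations of same-numbered arrays correlated at r = -0.18, 0.19, -0.13 and -0.19 across genes. The members and lists were chosen with earlier results of these data known. Named members were those with p below 0.05, the 2 smallest p of each family, the 6 highest and 6 lowest means, those with genotypes that do not overlap, the 4 furthest outside the other arrays in each direction, Klf6, and the 3 smallest p of other lists; members outside this rule were named after their values were seen. Protein sequences were not analysed here. The alternatives were other scalings, filters, feature choices, array weights, the block, and leaving out arrays or lot batches (the last chosen after seeing the data).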

Additional observations from a re-analysis of the deposited data

Results flagged for a closer look

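In groups of 4 arrays, a value far from the other 3 was looked for by Dixon's test in 61 groups of the named members, and 2 were found; chance marks about 1 in 20 groups. Foxn3 on Cx43 KO 4 (0.40) lay above Cx43 KO 1 to 3, which ran from -0.30 to -0.19. Stat6 on WT 4 (-0.49) lay below WT 1 to 3, which ran from -0.16 to -0.09.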

How the results depend on the processing

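The number of arrays and the share of features without a ratio limit the precision. Over the 35 named members, 621 of 674 differences under other settings kept their direction and 0 passed an adjusted p below 0.05. The lot batch pairs the arrays; as a block it left 2 members at an unadjusted p below 0.05. That count was 8 with array weights (10.4%, against 14.6% of all genes), 2 with exact 0 kept (2.6%, against 6.79%), 2 with all 8 values (3.64%, against 7.67%) and 1 to 8 over leaving out arrays or lot batches (1.72% to 11.3%, against 3.62% to 16.3%). Genes past the adjusted threshold numbered 2 with array weights and 0 to 4 over leaving out; those at an unadjusted p below 0.05 numbered 511 and 102 to 427. Members above the pool on every array numbered 2 with 1 feature per gene, 4 at 1.5-fold, 0 at 4-fold and 1 to 3 over leaving out; those below numbered 4 at 1.5-fold, 1 at 4-fold and 2 to 3 over leaving out. Non-overlapping members numbered 12 with at least 2 values (11.3%, against 8.49% of all genes), 1 with exact 0 kept (1.3%, against 4.02%), 0 with all 8 values (against 4.2%) and 1 to 9 over leaving out (1.72% to 16.4%, against 5.67% to 23.5%). Differences (Cx43 KO minus WT) that changed sign follow, and the cause was not tested. With quantile and scale normalization they were Foxn3 (0.023 and 0.014), Gata6 (0.10 and 0.20), Klf6 (-0.060 and -0.044), Zfp516 (-0.11 and -0.12), Zfp790 (0.13 and 0.19) and Zfp956 (0.078 and 0.22). Without centring Foxn3 was 0.0031. With array weights they were Klf6 (-0.20), Nr2f1 (0.22), Zfp703 (0.23) and Zfp790 (0.031). Over leaving out arrays or lot batches the ranges were -0.16 to 0.071 (Foxn3), -0.0083 to 0.54 (Foxo1), -0.43 to 0.35 (Klf6), -0.11 to 0.66 (Nfib), -0.27 to 0.35 (Nr2f1), -0.47 to 0.14 (Stat6), -0.036 to 0.24 (Zfp516), -0.41 to 0.25 (Zfp703), -0.13 to 0.092 (Zfp790), -0.18 to 0.42 (Zfp821) and -0.087 to 0.024 (Zfp956).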
